A study of Mus musculus with 6 samples.

Results

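Coenzyme A (CoA) carries acyl groups in nearly every step of fatty acid synthesis and oxidation, and the liver holds large amounts of it. Cells make CoA from pantothenate (vitamin B5), which pantothenate kinases (Pank1, Pank2, Pank3) phosphorylate in the step that controls the rate, after which Ppcs, Ppcdc and Coasy complete the molecule. Nudix hydrolases such as Nudt7 and Nudt19 cleave CoA inside the cell, and vanins (Vnn1, Vnn3) are pantetheinases that split the breakdown product pantetheine into pantothenate and cysteamine. Vnn1 and Pank1 are known as targets of the fatty acid receptor PPARA in liver.

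The 10 vanin and CoA genes were measured by 15 of the 56605 probes on the arrays, and they are 10 of the 22911 genes to which a probe could be assigned. A probe was assigned when its RefSeq accession belonged to one of these genes, which gave 3 probes for Nudt19, 2 each for Pank2, Coasy and Nudt7, and 1 for each of the others. Liver RNA came from 6 male mice, aged 12 weeks when the diets began, with 1 array of 1 colour per mouse. The 3 control mice were fed regular granulated chow (100% regular food) and the 3 soy mice a granulated mix of 75% regular food and 25% soy bean powder, both for 4 weeks. Neither group carried a genetic change that the sources used here name, and the strain is not given in them. With 3 mice in a group the precision of every value is limited, and p-values measure the spread between these mice. Levels are normalized signals on the log2 scale, a change is the soy mean minus the control mean on that scale, and a gene is said to have passed where the limma fit gave any of its probes an adjusted p (Benjamini-Hochberg method over all probes) below 0.05 and a soy to control ratio over 1.5 or below 0.66. Between 28701 and 29881 probes were well above background on a soy array, against 33740 to 35521 on a control array, so more probes were detected on every control array. The part of this difference in the values below was not tested. All 15 probes of these genes were well above background on all 6 arrays and none was saturated, so every change given for them was measured on both sides. All 10 hepatocyte markers examined, albumin among them, were likewise well above background on all 6 arrays.

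None of the 10 genes passed, whereas 122 of all 22911 genes did (0.532%), through 198 of all probes (0.35%). By unadjusted p in the same limma fit, 3 genes (Vnn1, Ppcs and Pank1) were under 0.05 on their brightest probe, against 14.3% of all genes. For 5 of the 10 the groups were fully separated, against 20.5% of all genes. Of these, Vnn1, Ppcs and Coasy were higher in soy livers (9.68% of all genes were higher without overlap) and Pank1 and Pank4 were lower (10.8%). The median change of the 10 genes was -0.00025, beside -0.0056 for all genes. Apart from the vanins, the 8 remaining genes lay between -0.28 and 0.36, so each differed by less than 0.5 on the log2 scale. The vanins had the largest differences and the widest spread between control mice of the 10, as the plot of the genes by array shows. The difference of Vnn3 rested on single arrays, at 0.17 without control 2 and 0.43 without soy 1.

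**Figure D1:**
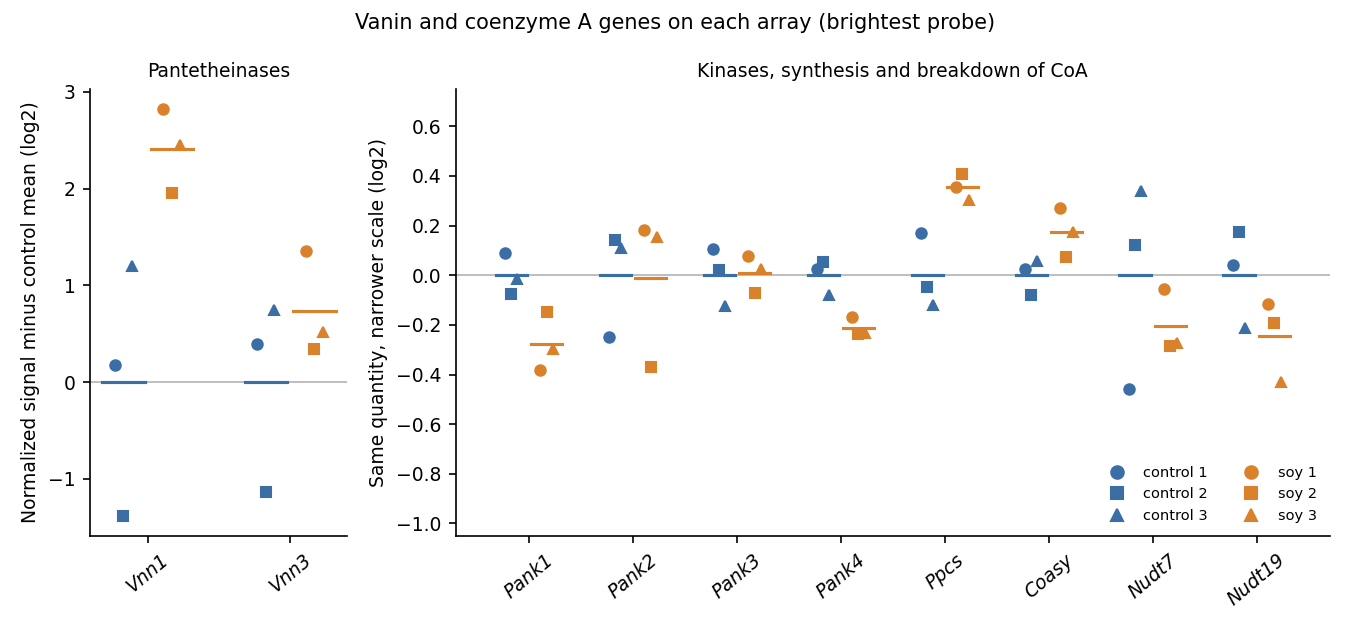
Normalized signal of the brightest probe of each of the 10 genes on each array, minus the control mean of that gene (log2). Symbols mark the 3 replicates of a group, short lines the group means; the vanins (left) have a wider scale than the other genes (right). Vnn1 on the soy arrays lies above all control arrays, and control 2 is the lowest array for both vanins.

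Vnn1 (NM_011704), vanin 1, is the membrane-bound pantetheinase of hepatocytes. Its normalized signals (log2) were 8.66, 7.10 and 9.68 on control arrays 1, 2 and 3, and 11.30, 10.44 and 10.93 on soy arrays 1, 2 and 3. Every soy liver was above every control liver, and the controls were spread over 2.58 log2 units, against 0.86 in the soy group. The mean signal was 8.48 ± 1.30 in control and 10.89 ± 0.43 in soy livers (SD, n = 3). The change was 2.41 (SE 0.58, 95% confidence interval 1.06 to 3.76), which is a 5.31-fold difference with an interval of 2.08-fold to 13.5-fold. Its adjusted p from limma was 0.163 (unadjusted 0.0036), so it did not pass. By size of change in either direction it ranked 23 among the 22911 genes, and 6 genes had a larger rise. The difference was 3.42 within slide 1, which held control 1, control 2 and soy 1, and 1.25 within slide 3, which held control 3 and soy 3. It was 1.72 without control 2 (adjusted p = 0.199) and 3.01 without control 3 (adjusted p = 0.0738), and the range of adjusted p over 18 tested alternatives was 0.0738 to 0.353.

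**Figure D2:**
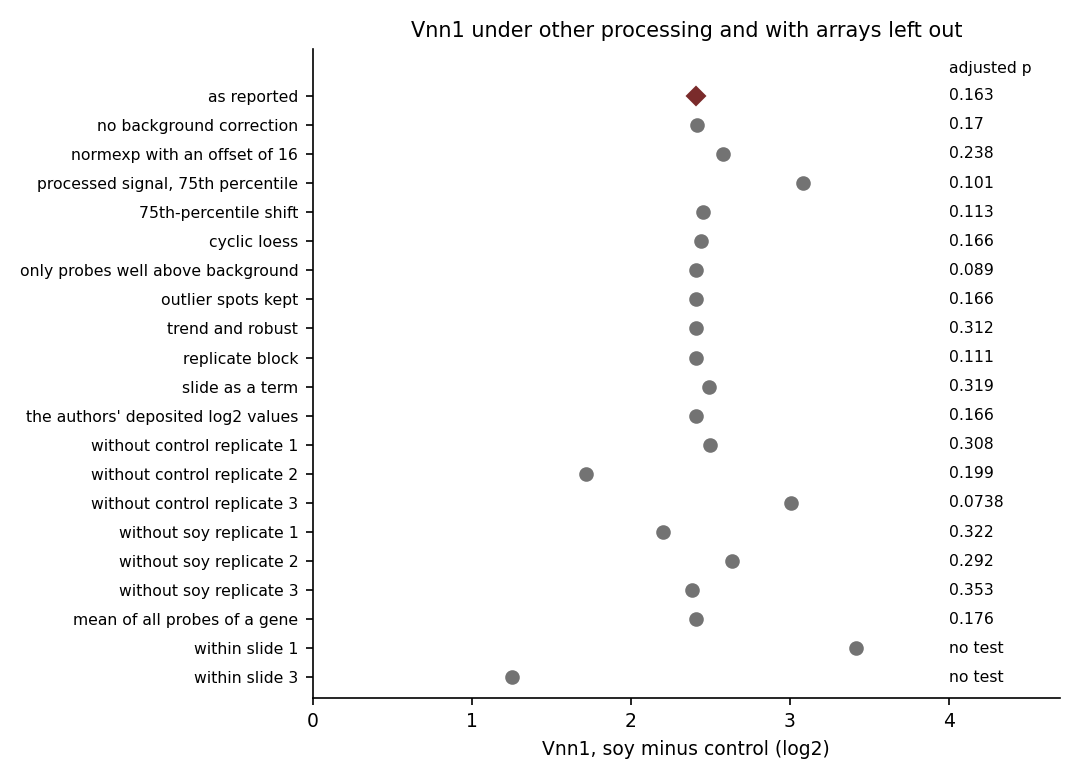
Change of Vnn1 (soy minus control, log2) as reported (diamond) and under each alternative (circles), with the adjusted p from limma at the right of each; slides 1 and 3 gave a value without a test. All values are above 0, between 1.25 and 3.42, and no adjusted p is under 0.0738.

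Vnn3 (NM_011979), a second pantetheinase gene, lies next to Vnn1 on chromosome 10. Its normalized signals were 11.34, 9.81 and 11.69 on control arrays 1, 2 and 3, and 12.30, 11.29 and 11.46 on soy arrays 1, 2 and 3. The groups overlapped, since soy 2 was below control 1 and both soy 2 and soy 3 were below control 3. The mean was 10.95 ± 1.00 in control and 11.69 ± 0.54 in soy livers (SD, n = 3), a change of 0.74 (SE 0.48, 95% confidence interval -0.39 to 1.86, adjusted p = 0.617 from limma). It was 1.73 within slide 1 and -0.23 within slide 3, so the direction was not the same within both slides. The change was 0.17 without control 2, 0.43 without soy 1 and 1.11 without control 3.

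**Figure D3:**
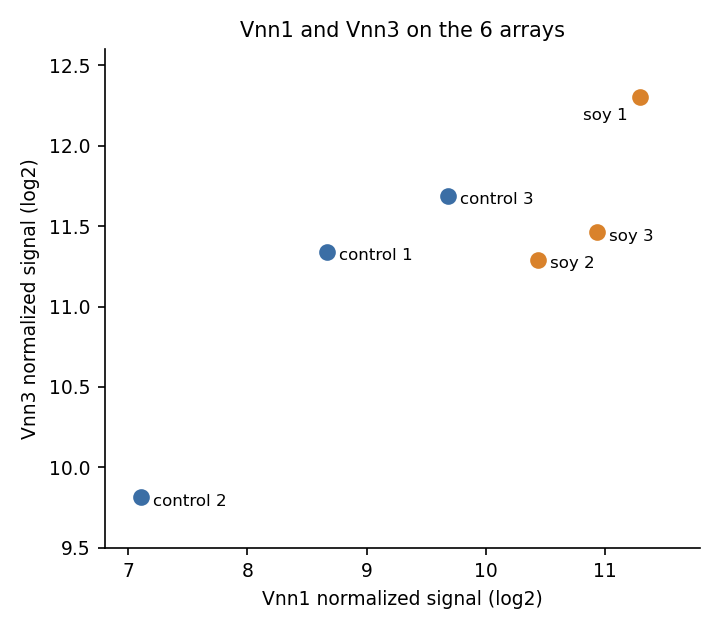
Normalized signal of Vnn1 (x axis) against Vnn3 (y axis), both log2, 1 point per array. Control 2 is lowest on both axes and soy 1 highest on both, and the 3 soy arrays are separated from the controls on the Vnn1 axis alone.

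The arrays stood in the same order for both vanins within each group. Control 2 was lowest and control 3 highest for each gene, and soy 2 was lowest and soy 1 highest. This order was not particular to the vanins, since the brighter Coasy probe had it in both groups, and Pank2, Pank3, Pank4 and Nudt7 had it in the soy group. Over the 6 arrays, which share the diet as a source of difference, Pearson's r between the vanins was 0.86 and Spearman's rho 0.71, given as a description. Vnn3 is known from blood cells as well, and neutrophil markers were therefore examined beside it. Of 9 such markers measured (of 10 listed), Ngp, Ltf and Cxcr2 were not well above background on any array, and the summed normalized intensity of the 9 was 6856, 7205 and 8513 on the control and 7314, 7475 and 6413 on the soy arrays. Elane had the brightest probe of this list. The measured markers did not move one way: 5 had a higher and 4 a lower soy mean, the largest differences upward being those of S100a9 (0.62) and S100a8 (0.58), with overlap. Without overlap, Retnlg was higher (0.49, adjusted p = 0.304 from limma), and Camp (-0.54, adjusted p = 0.325) and Mpo (-0.16, adjusted p = 0.594) were lower. Of all genes, 9.68% were higher and 10.8% lower without overlap. Mpo, at a mean of 7.05 in control and 6.88 in soy livers, was well above background on all 3 control arrays and on no soy array. The summed normalized intensity of 5 red cell markers, of which Hba-a1 had the brightest probe, was 169532, 124881 and 182583 on the control and 138646, 288408 and 164974 on the soy arrays. Its order in the control group was that of the vanins, whereas soy 2, lowest for both vanins, had the highest red cell sum. Retnlg, Camp, Mpo, S100a8 and S100a9 were named after their values were seen, and the part of blood cells in the vanin values was not tested. In whole liver, fewer cells of a type and less RNA per cell cannot be told apart.

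The sequence before the start of Vnn3 is shown because it is the only vanin window analysed; none of Vnn1 or Coasy was analysed here. It is the RefSeq window of 250 bases upstream of the start on build GRCm38.p6, chr10:23851212-23851461, plus strand, 5′ to 3′, in lower case with no capitals since no AGGTCA is in it.
Vnn3: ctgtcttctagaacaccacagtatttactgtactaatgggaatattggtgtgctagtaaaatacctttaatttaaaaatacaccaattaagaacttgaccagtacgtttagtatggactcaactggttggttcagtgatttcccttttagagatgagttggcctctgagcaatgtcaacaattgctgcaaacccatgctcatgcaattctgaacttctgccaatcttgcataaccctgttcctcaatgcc
Its GC content was 39.2% with 1 CpG, beside a median of 52.4% and 6 CpG over all 32851 windows, and it was the lowest among the 12 windows matched to 8 of the 10 genes. AGGTCA, the hexamer read by many nuclear receptors, was searched on both strands, as was a direct repeat of AGGNCA with any 1 base between the copies, the form that PPARA and its partner RXR read, which can contain an AGGTCA. The first was found in 4607 of the 32851 windows and the second in 111 (0.338%). Among the 12 windows of these genes, AGGTCA was found once, upstream of Ppcs, and the repeat in none.

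By a rule set for likeness, the 4 genes with the highest Pearson correlation to Vnn1 over the 6 arrays, of 15096 detected genes, were Dennd4a (r = 0.996, rho = 1), Gm30752 (r = 0.991, rho = 1), Gm4013 (r = 0.987, rho = 1) and Gatad2a (r = 0.986, rho = 0.94). None of them passed. Their differences were far smaller than that of Vnn1, between 0.25 for Dennd4a and 0.38 for Gm30752 on the log2 scale. Dennd4a, for example, was 9.17, 9.02 and 9.29 on the control and 9.43, 9.38 and 9.42 on the soy arrays. With 6 arrays and so many genes, these correlations are a description of the arrays only.

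Of the pantothenate kinases, Pank1 (NM_023792), the isozyme that prevails in liver, was lower in all soy livers. Its normalized signals were 12.55, 12.39 and 12.45 on the control and 12.08, 12.31 and 12.16 on the soy arrays, without overlap. The change was -0.28 (SE 0.11, 95% confidence interval -0.52 to -0.029), which did not pass (adjusted p = 0.378 from limma). Pank1 was lower within slide 1 (-0.39) and within slide 3 (-0.28), and lower under all 20 alternatives.

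Pank2 (NM_153501), the mitochondrial isozyme, and Pank3 (NM_145962) showed changes near 0 with overlapping groups. The brighter Pank2 probe changed by -0.011 (95% confidence interval -0.43 to 0.41) and the dimmer by 0.019, and the direction of the first turned under 10 of 20 alternatives, the 75th-percentile scaling and cyclic loess among them. Its lowest array was soy 2, at 8.64. Pank3 changed by 0.011 (95% confidence interval -0.23 to 0.25), from 13.45 ± 0.12 in control to 13.46 ± 0.075 in soy livers (SD, n = 3), and its direction turned under 5 of 20. Changes within these intervals could not be told from 0 with 3 mice in a group.

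Pank4 (NM_001305804) is a family member with a phosphatase domain and without known kinase activity in mammals. Its normalized signals were 11.42, 11.45 and 11.32 on the control and 11.23, 11.16 and 11.16 on the soy arrays. All soy livers were below all control livers, with a narrow spread of 0.069 (SD) in the control and 0.040 in the soy group. The change was -0.21 (SE 0.093, adjusted p = 0.441 from limma), and it was lower under all 20 alternatives.

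**Figure D4:**
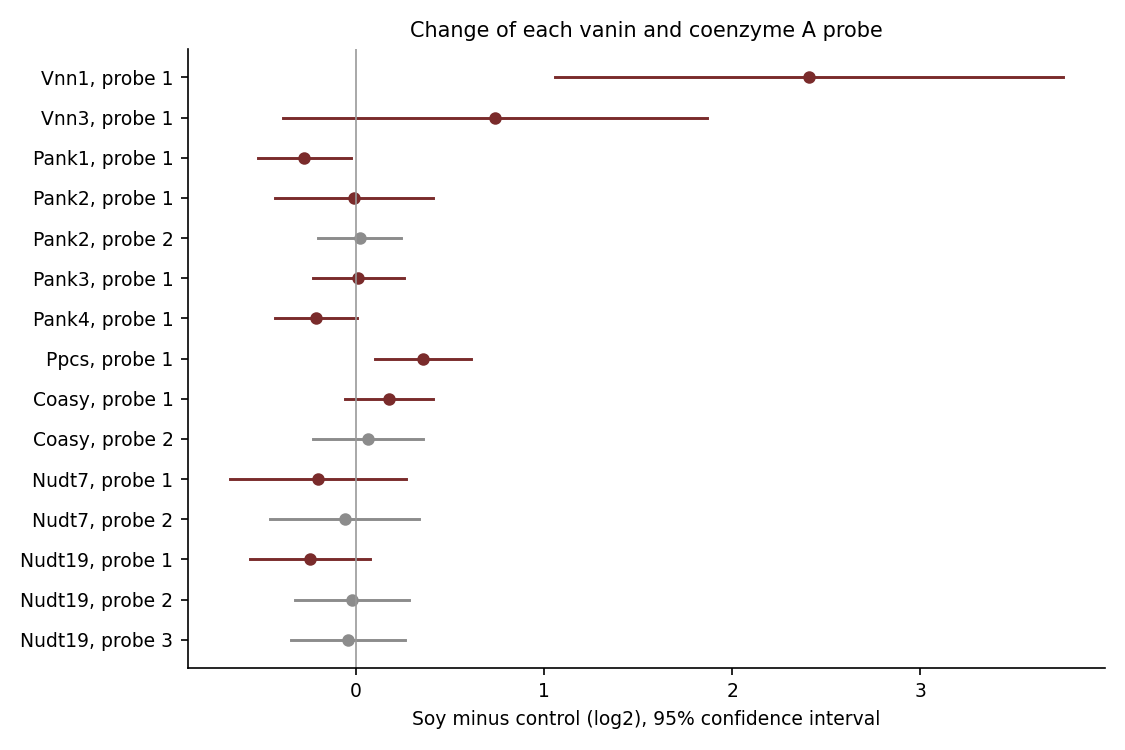
Change (soy minus control, log2) of each of the 15 probes of the 10 genes, with 95% confidence intervals from limma, not adjusted for the number of probes; probes of a gene are numbered from the brightest (dark) to the dimmest (grey). The intervals of Vnn1, Ppcs and Pank1 do not include 0, and that of Vnn1 is the widest.

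Ppcs (NM_026494), the synthetase that joins cysteine to phosphopantothenate, was higher in all soy livers. Its normalized signals were 11.82, 11.60 and 11.53 on the control and 12.01, 12.06 and 11.96 on the soy arrays. The groups did not overlap, and the soy livers lay close together (SD 0.051, against 0.15 in control). The change was 0.36 (SE 0.11, 95% confidence interval 0.10 to 0.61), or 1.28-fold, with an adjusted p of 0.271 from limma, and it did not pass. It was 0.29 within slide 1 and 0.42 within slide 3.

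The window upstream of Ppcs is shown because, of the 12 windows searched for 8 of the 10 genes, it alone holds this hexamer. It is chr4:119422421-119422670 of GRCm38.p6, minus strand, 5′ to 3′, from RefSeq, and the capitals mark AGGTCA at bases 27 to 32 of the 250.
Ppcs: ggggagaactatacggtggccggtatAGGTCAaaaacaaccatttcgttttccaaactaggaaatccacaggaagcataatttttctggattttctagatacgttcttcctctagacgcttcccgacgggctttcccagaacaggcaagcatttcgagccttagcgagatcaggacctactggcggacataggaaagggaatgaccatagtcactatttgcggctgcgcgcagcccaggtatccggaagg
The match is a description of these letters and not of a bound site.

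Coasy (NM_001305982) encodes the enzyme that carries out both last steps of CoA synthesis. On its brighter probe the normalized signals were 15.28, 15.17 and 15.31 on the control and 15.52, 15.33 and 15.43 on the soy arrays, so that the lowest soy array was just above the highest control array. The change was 0.17 (SE 0.10, 95% confidence interval -0.061 to 0.41, adjusted p = 0.572 from limma). On this brighter probe it was 0.30 within slide 1 and 0.12 within slide 3. The dimmer probe changed by 0.063 with overlapping groups, at 0.34 within slide 1 and -0.16 within slide 3.

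Nudt7 (NM_024437), the peroxisomal CoA hydrolase of liver, differed more between control mice than between the diets. Its normalized signals were 16.44, 17.02 and 17.24 on the control and 16.85, 16.61 and 16.63 on the soy arrays, with control 1 below all soy arrays and controls 2 and 3 above them. The change was -0.20 (SE 0.20, 95% confidence interval -0.67 to 0.26, adjusted p = 0.749 from limma), and -0.060 on the dimmer probe. It was 0.11 within slide 1 and -0.61 within slide 3, so the slides gave opposite signs. The value rested on single controls, since it was -0.43 without control 1 and -0.035 without control 3.

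Nudt19 (NM_033080), a peroxisomal CoA hydrolase known mainly from kidney, had 3 probes. The brightest was 13.81, 13.95 and 13.56 on the control and 13.66, 13.58 and 13.34 on the soy arrays, with control 3 below soy 1 and soy 2. It changed by -0.25 (SE 0.14, 95% confidence interval -0.57 to 0.075, adjusted p = 0.557 from limma), and the other probes by -0.023 and -0.041, also with overlap. It was -0.16 without control 2, -0.15 without soy 3 and -0.10 as the mean of the probes. Of 7 kidney markers, Umod, Kap and Slc12a1 were not well above background on any array, and Aqp2 had the brightest probe. The summed normalized intensity of the 7, undetected markers included, was 1237, 1125 and 1216 on the control and 1384, 1388 and 1354 on the soy arrays. By gene, 4 were higher in soy livers and 3 lower, with a median change of 0.011. None was higher and 1 was lower without overlap, beside 9.68% and 10.8% of all genes. The part of kidney RNA in the Nudt19 values was not tested.

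Among 13 other genes of CoA metabolism and transport, none passed in either direction, the smallest adjusted p being 0.154. By their brightest probe 10 were higher in soy livers and 3 lower, with a median change of 0.25, beside -0.0056 over all genes. Soy was higher without overlap for 5 and lower for 1, beside 9.68% and 10.8% of all genes. Upb1 had the brightest probe of the list, and on no array was Gadl1 well above background.

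The 4 with the largest absolute change were Slc5a6, Enpp3, Slc25a42 and Nudt8. Slc5a6, the sodium-dependent transporter that takes up pantothenate and biotin, was 11.74, 11.60 and 10.60 on the control and 10.63, 10.62 and 10.02 on the soy arrays. Its change was -0.89 (SE 0.31, adjusted p = 0.331), and the groups overlapped through control 3. Nudt8, a mitochondrial CoA hydrolase, was 11.48, 11.65 and 11.72 on the control and 12.07, 12.08 and 12.01 on the soy arrays, without overlap (change 0.44, SE 0.10, adjusted p = 0.154). Enpp3, an ectonucleotidase of the cell surface, changed by 0.50 (adjusted p = 0.352), and Slc25a42, the mitochondrial CoA carrier, by 0.49 (adjusted p = 0.323), all by limma. Ppcdc, named here after its values were seen because it acts between Ppcs and Coasy, was 10.90, 11.02 and 10.92 on the control and 11.35, 11.30 and 11.21 on the soy arrays (change 0.34, SE 0.096, adjusted p = 0.231).

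Of 30 PPARA targets, listed because Vnn1 and Pank1 are known among them, 5 passed and all 5 rose, with a median change of 0.44 over the list. Soy was higher without overlap for 18 of the 30 and lower for 2, beside 9.68% and 10.8% of all genes, and 0.532% of all genes passed. By their brightest probe 24 of the 30 were higher in soy livers and 6 lower. The 2 lower without overlap were Angptl4 (-0.64, adjusted p = 0.0689) and Cpt1a (-0.51, adjusted p = 0.256, both from limma). These 2 were named after their values were seen. The genes that passed were Cyp4a14, Pdk4, Acot1, Acot2 and Acaa1b. Acot2, a mitochondrial acyl-CoA thioesterase that releases free CoA, rose by 1.44 (SE 0.13, adjusted p = 0.0130 from limma), from 8.34, 8.30 and 8.73 on the control to 9.93, 9.92 and 9.87 on the soy arrays. Fabp1 had the brightest probe of the list. The order of the control arrays seen for the vanins, with control 2 lowest and control 3 highest, was also seen for 11 of the 28 targets that were well above background on all control arrays, for 1 of 12 such other CoA genes, and for 13.3% of all 15063 such genes. This order was looked for after the vanin values were seen. Cyp4a10, a fatty acid omega-hydroxylase named after its values were seen, was one of the 11, at 13.05, 10.99 and 13.64 on the control and 14.44, 15.08 and 14.61 on the soy arrays (change 2.15, SE 0.61, adjusted p = 0.228). Angptl4, lower in soy livers, was another of the 11. On control 2 both Vnn1 and this brightest probe of Cyp4a10 were at least 1.5 log2 units below the other controls. So was the red cell marker Alas2, at 13.95, 11.42 and 13.93 on control arrays 1, 2 and 3. Alas2 is no listed PPARA target and was named after its values were seen. The other Cyp4a10 probes changed by 1.41 and 1.96. The first of these was 12.87, 11.56 and 13.20 on the control arrays, so its gap to control 1 was smaller.

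**Figure D5:**
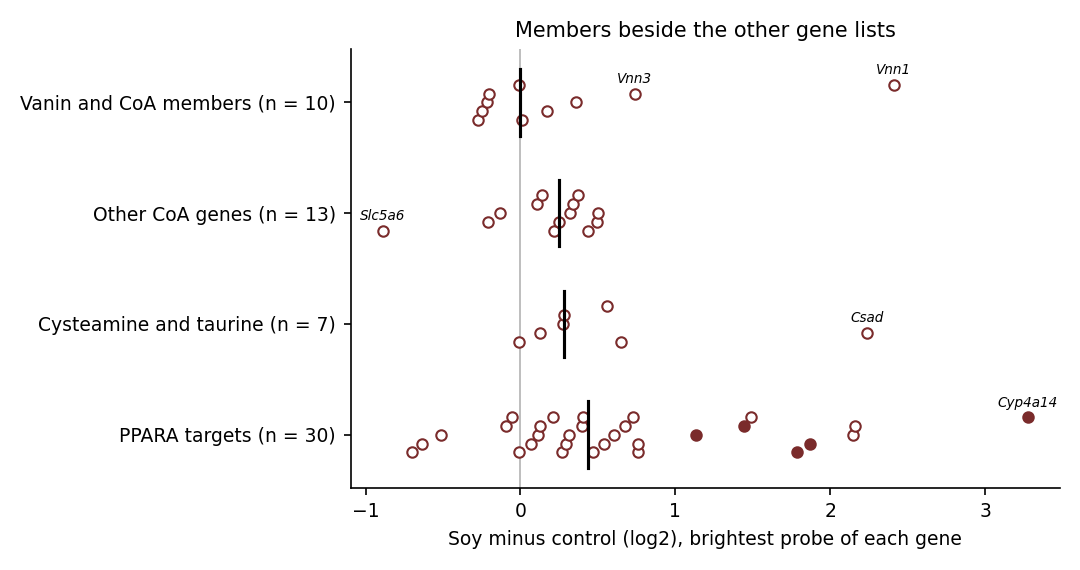
Change (soy minus control, log2) of the brightest probe of each gene for the 10 vanin and CoA genes, 13 other CoA genes, 7 cysteamine and taurine genes and 30 PPARA targets; filled points passed, open points did not, and vertical bars are medians. The 5 filled points are all PPARA targets, and Vnn1, which did not pass, lies to the right of all of them but Cyp4a14.

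The pancreas lies beside the liver, and its markers were examined as well. All 6 had a lower soy mean (median change -0.42), none passed, and Cela1 and Ctrb1 were lower without overlap (10.8% of all genes were). Their summed normalized intensity was 30543, 46765 and 39021 on the control and 22506, 28114 and 20627 on the soy arrays, without overlap. Cela1 had by far the brightest probe and made up most of this sum (change -0.73, adjusted p = 0.192 from limma). Cpa1, Pnlip and Prss2 were well above background on control 1 and control 2 alone. The part of pancreas in the values of these genes was not tested.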

How the data were processed

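Liver RNA of 6 mice was hybridized to 1-colour Agilent arrays. The authors deposited, per the file headers, Feature Extraction 11.5.1.1 output with, for every spot, a median foreground and a median background intensity, neither corrected nor scaled. The authors also deposited log2 values for the same arrays, with medians between 7.33 and 7.34. These values differed by at most 0.056 on any probe from those computed here with outlier spots kept. The choice of raw medians and of limma follows the paper's methods.

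Median intensities were corrected with normexp (offset 50), quantile normalized and log2 transformed. Control spots and outliers were removed, and replicate spots averaged by probe. Soy was compared with control by limma 3.58.1 in R 4.3.3 over 56605 probes, after the fit had been tested on simulated data. Symbols came from RefSeq accessions (GRCm38.p6; 58.3% of probes), whereas the array design is annotated on another build. A gene was given by its brightest probe. Other probes were given beside it for Pank2, Coasy, Nudt7, Nudt19 and Cyp4a10 only.

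Genes named were the 10 members, the other CoA genes with the 4 largest changes, the genes of each list that passed (up to 5), its gene with the brightest probe and its undetected markers, and the 4 genes most like Vnn1; 1 marker is not reported here. Ppcdc, Ado, Csad, Slc6a6, Cyp4a10, Angptl4, Cpt1a and Alas2 fall outside this rule and were named after their values were seen. So do and were Retnlg, Camp, Mpo, S100a8, S100a9, Ctrb1, Cpa1, Pnlip and Prss2. Members, lists and tests were chosen with earlier results of these data known. The lists were other CoA genes, cysteamine and taurine genes, PPARA targets, and markers of hepatocytes, neutrophils, red cells, Kupffer cells, endothelial cells, stellate cells, cholangiocytes, kidney and pancreas. Alternatives covered background correction, signal, scaling, filters, moderation, blocks, the deposited log2 values and each array left out. Tables and plots were made with Python 3.11.15, pandas 2.3.3 and matplotlib 3.10.9.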

Additional observations from a re-analysis of the deposited data

How the results depend on the processing

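None of the 10 genes passed under any of 19 alternatives. Directions of Vnn1, Pank1, Pank4, Ppcs, Coasy and Nudt19 held under all 20 alternatives for single genes. Except for the mean of a gene's probes, these alternatives followed the brightest probe only. The dimmer Nudt19 probes were higher in soy livers within slide 1 (0.099 and 0.091) and within slide 3 (0.076 and 0.066). The dimmer Coasy probe was -0.16 within slide 3. The number of probes that passed over the whole array, 198 (118 higher, 80 lower), was 77 with an offset of 16, 299 with the 75th-percentile shift, 493 with only probes well above background, 24 with slide as a term (slide 2 held 1 soy array only), and 23 to 199 with 1 array left out. The processed signal gave 13138 (11924 higher, 1214 lower). The cause was not tested. The replicate number as a block gave 77 probes and 0 of the 10 genes. With it the unadjusted p from limma was 0.00090 for Vnn1 and 0.0612 for Vnn3, against 0.0036 and 0.167 without it. Deviations of same-numbered arrays correlated at 0.12, -0.060 and 0.097, and those of other pairs at -0.21 to 0.10. With 3 arrays in a group these values cannot decide whether the numbers pair the mice. The processed signal and the 75th-percentile shift moved the median of all probes from -0.010 to 0.13 in both. Relative to this median Vnn1 was 2.96 and 2.32, Vnn3 0.66 and 0.59, Ppcs 0.19 and 0.20, and Coasy 0.046 and 0.015. Pank1 was -0.42 and -0.43 (-0.27 in the main fit), and Pank4 -0.32 and -0.36 (-0.20). Nudt7 was -0.37 and -0.43 (-0.19), and Nudt19 -0.37 and -0.40 (-0.24). Pank2 was -0.12 and -0.091, and Pank3 -0.14 and -0.15. The unadjusted p of Pank1, 0.0328, was under 0.05 in 11 of 18 tested alternatives. It was 0.0653 with an offset of 16, 0.0622 with the processed signal, 0.0648 with the replicate block, and 0.0637 to 0.0948 without control 1, control 3, soy 1 or soy 3.

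Signs turned for the following. Pank2 was 0.0073 with the processed signal, 0.043 with the 75th-percentile shift, 0.017 with cyclic loess, 0.16 with slide as a term, 0.0037 as the mean of its probes, 0.24 within slide 1, 0.046 within slide 3, and -0.14 to 0.17 with 1 array left out. Pank3 was -0.018 with the processed signal, -0.015 with the 75th-percentile shift, -0.00032 with cyclic loess and -0.052 to 0.063 with 1 array left out. Vnn3 was -0.23 within slide 3, and Nudt7 was 0.11 within slide 1. The medians of 12 gene lists moved by less than the spread between mice in 19 of 24 cases. The exceptions with the processed signal were other CoA genes (0.35), neutrophil (0.63), kidney (0.88) and pancreas (-0.64) markers, and the mean of a gene's probes gave 0.10 for cholangiocyte markers. Normexp on mean signals was not run, since the files used here hold medians.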

Other observations

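Pantetheinases release cysteamine, which cells oxidize to hypotaurine and taurine. Of 7 cysteamine and taurine genes none passed, 6 were higher in soy livers (4 without overlap, and 0 were lower without overlap, beside 9.68% and 10.8% of all genes), and the median change was 0.28. Cdo1, which oxidizes cysteine and had the brightest probe, changed by -0.011 (adjusted p = 0.985 from limma). Ado, which oxidizes cysteamine, changed by 0.12 with overlapping groups (adjusted p = 0.720 from limma). Csad, the decarboxylase that makes hypotaurine from the product of Cdo1, was 14.32, 12.96 and 14.32 on the control and 16.04, 15.99 and 16.28 on the soy arrays. The change of Csad was 2.24 (SE 0.35, adjusted p = 0.0543 from limma), just outside the threshold. Slc6a6, the taurine transporter, was 11.84 ± 0.25 in control and 12.49 ± 0.21 in soy livers (SD, n = 3; change 0.65, SE 0.16, adjusted p = 0.179). Ado, Csad and Slc6a6 were named after their values were seen. As for Vnn1, control 2 was the lowest array for Csad.

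The median changes were -0.12 for 10 hepatocyte, 0.26 for 5 red cell, 0.15 for 9 Kupffer cell, -0.10 for 8 endothelial, -0.18 for 7 stellate cell and -0.012 for 6 cholangiocyte markers, beside 0.16 for neutrophil and 0.011 for kidney markers, and no gene of these lists passed. The genes with the brightest probe were Alb, Hba-a1, Cd5l, Clec4g, Dcn and Spp1, in the order of the first 6 lists. Epcam was not well above background on the 6 arrays.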
